A study of Mus musculus with 13 samples.

Results

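The 10 genes described here encode plasma proteins of the acute phase response: the serum amyloid A genes *Saa1*, *Saa2*, *Saa3* and *Saa4*, the orosomucoid genes *Orm1*, *Orm2* and *Orm3*, *Lcn2* (lipocalin 2), *Apcs* (serum amyloid P component) and *Hp* (haptoglobin). They were taken by symbol from a table of 53465 genes, all 10 were found in it, and all 10 passed the filter on low counts. Liver RNA came from individual male BALB/c mice, 6 WT and 7 Nod2-/-, with 1 library per mouse. All of them had been painted as pups with DMBA, a carcinogen, and then fed HFD, a diet in which fat supplies most of the energy, for 30 weeks by the sample labels. The Nod2-/- mice carry a germline deletion of *Nod2*, an intracellular sensor of bacterial cell walls, and WT mice were bred separately in the same room rather than as littermates. The labels give the disease state of every library, WT included, as cancer, and whether a piece of liver held tumor is not given in the sources used here. The paper reports that under this treatment more Nod2-/- than WT males had liver tumors, and that Nod2-/- males gained more weight. Genotype, tumor load and body weight therefore cannot be told apart in this comparison. *Nod2* itself had 0 to 4 counts in WT and 1 to 6 in Nod2-/- livers, so its transcript could not check the genotypes.

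The acute phase response is the change in plasma proteins that follows injury or infection. Interleukin 1, interleukin 6 and related cytokines act on hepatocytes, where the factors STAT3, NF-kB and C/EBP raise transcription of genes such as these. The serum amyloid A proteins ride on high-density lipoprotein, the orosomucoids bind small lipophilic molecules, lipocalin 2 captures bacterial siderophores, serum amyloid P binds amyloid and microbial surfaces, and haptoglobin binds free hemoglobin.

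Several of these genes are near copies, and reads of 43 bases cannot always tell them apart, so the sequences come first. *Saa1* (ENSMUSG00000074115.5, chromosome 7, 46740497 to 46742980 of GRCm38, minus strand) and *Saa2* (ENSMUSG00000057465.5, chromosome 7, 46751790 to 46754313, plus strand) each have 4 exons and a coding sequence of 366 bases, of which 348 (95.1%) are identical. The last 300 bases of each, positions 67 to 366 without the stop codon, are shown from GENCODE with the 18 positions that differ in capitals, because these are the places at which a read can be assigned.
Saa1: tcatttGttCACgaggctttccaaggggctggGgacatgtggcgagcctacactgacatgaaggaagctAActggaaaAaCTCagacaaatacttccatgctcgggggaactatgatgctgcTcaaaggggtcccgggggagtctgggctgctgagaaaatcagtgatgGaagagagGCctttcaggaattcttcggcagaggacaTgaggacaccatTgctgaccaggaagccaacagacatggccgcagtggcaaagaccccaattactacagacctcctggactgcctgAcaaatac
Saa2: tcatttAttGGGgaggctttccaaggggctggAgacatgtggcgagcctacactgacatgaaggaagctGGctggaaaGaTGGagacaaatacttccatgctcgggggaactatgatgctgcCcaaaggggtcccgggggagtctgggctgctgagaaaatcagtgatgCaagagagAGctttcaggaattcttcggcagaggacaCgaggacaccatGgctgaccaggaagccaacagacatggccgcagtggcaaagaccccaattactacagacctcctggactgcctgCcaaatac
The differences come in groups with long identical stretches between them. Of the 567 windows of 43 bases in the *Saa1* transcript, 92 also occur in *Saa2* and 16 in *Saa3*, so 19.0% could not be assigned by the sequence of a single read. Reads came in pairs, and the second read of a pair was not considered in this or the other window shares. In *Saa2* this share was 16.3% of 564 windows, and in *Saa3* 3.12% of 513.

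*Saa2* was also one of the genes for which the study designed primers for quantitative PCR, and the forward primer lies over one of the clusters of differences. It is shown with the *Saa1* sequence at the same place, differing bases in capitals, followed by the reverse primer.
Saa2 forward primer: agctGGctggaaaGaTGGagacaa
Saa1 at the same place: agctAActggaaaAaCTCagacaa
Saa2 reverse primer: tgtcctctgccgaagaattcctga
The forward primer matched *Saa2* at all of its 24 bases and differed from *Saa1* at 6. The reverse primer matched *Saa1* and *Saa2* with 0 differences, so only the forward primer separates the pair.

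The remaining genes could be told apart to different degrees. *Orm1* (chromosome 4, 63344560 to 63348163), *Orm3* (63356162 to 63359511) and *Orm2* (63362449 to 63365878) lie in a row on the plus strand with 6 exons each. *Orm1* and *Orm2* share 89.9% of coding positions, *Orm2* and *Orm3* 87.9%, and *Orm1* and *Orm3* 86.0%. Windows shared with another annotated gene made up 23.1% of *Orm1*, 26.5% of *Orm2* and 4.65% of *Orm3*. *Saa3* and *Saa4* are more distant from *Saa1*, with 74.3% and 64.4% of aligned coding positions identical. Of the *Saa4* windows 2.34% were shared, with 1317 other annotated genes, none of them a member. *Lcn2* (chromosome 2, 32384633 to 32388252), *Apcs* (chromosome 1, 172893961 to 172895041) and *Hp* (chromosome 8, 109575128 to 109579172) shared 0 windows with any other annotated gene. No member overlapped another annotated gene. How reads that map to several places were counted is not stated, so values of single *Saa* and *Orm* genes are given together with the sums of each family.

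The promoters are shown as a description of sequence. RefSeq promoter windows (build GRCm38.p6, 250 bases before to 50 after the start site) were given for 8 of the 10 genes, all but *Orm1* and *Hp*. Both strands were searched for a C/EBP motif (TTGCNNAA), a STAT3 motif (TTCNNNGAA) and an NF-kB motif (GGG, then 3 free bases, then TTCC). The 250 bases before the start site follow for 5 of them, with matches to the C/EBP motif in capitals.
Saa1, chr7:46742981-46743230, minus strand: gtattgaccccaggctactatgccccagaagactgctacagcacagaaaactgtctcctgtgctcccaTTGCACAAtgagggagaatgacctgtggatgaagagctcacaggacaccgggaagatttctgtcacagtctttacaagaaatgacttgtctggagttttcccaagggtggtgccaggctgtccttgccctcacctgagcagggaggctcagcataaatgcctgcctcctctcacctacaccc
Saa2, chr7:46751583-46751832, plus strand: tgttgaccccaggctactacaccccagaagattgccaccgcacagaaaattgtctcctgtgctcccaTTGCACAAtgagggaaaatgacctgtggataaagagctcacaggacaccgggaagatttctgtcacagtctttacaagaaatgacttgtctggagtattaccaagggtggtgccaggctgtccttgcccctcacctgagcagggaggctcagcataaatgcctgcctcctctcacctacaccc
Saa4, chr7:46732604-46732853, minus strand: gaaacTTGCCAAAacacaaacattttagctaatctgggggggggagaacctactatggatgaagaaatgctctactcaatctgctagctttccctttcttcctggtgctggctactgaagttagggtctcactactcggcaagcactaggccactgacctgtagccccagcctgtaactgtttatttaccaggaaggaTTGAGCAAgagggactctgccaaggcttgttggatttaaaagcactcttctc
Orm2, chr4:63362199-63362448, plus strand: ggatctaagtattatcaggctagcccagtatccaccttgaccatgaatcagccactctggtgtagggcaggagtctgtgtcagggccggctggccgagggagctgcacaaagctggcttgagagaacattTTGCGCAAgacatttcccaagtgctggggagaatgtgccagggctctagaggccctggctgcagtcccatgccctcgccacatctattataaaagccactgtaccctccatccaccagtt
Lcn2, chr2:32387740-32387989, minus strand: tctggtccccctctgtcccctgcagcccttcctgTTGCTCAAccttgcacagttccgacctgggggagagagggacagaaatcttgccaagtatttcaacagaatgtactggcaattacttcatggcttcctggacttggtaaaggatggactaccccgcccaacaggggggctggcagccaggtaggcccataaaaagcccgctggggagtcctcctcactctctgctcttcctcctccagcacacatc
The C/EBP motif was in 7 of the 8 member promoters (all but *Apcs*) and in 10.8% of 27025 mouse promoters of the same length. *Saa1* and *Saa2* held the same 8 bases, TTGCACAA, beginning at positions -182 and -183 from the start site, in promoters that were 95.3% identical. *Orm2* held TTGCGCAA, a sequence that reads the same on both strands, beginning at position -120. The *Orm3* match began at -121, in a promoter 86.2% identical to that of *Orm2*. The 7 promoters with the motif are therefore not 7 separate cases. *Saa4* held 2 matches, beginning at positions -245 and -52. The STAT3 motif was in *Apcs* alone (8.47% of all promoters) and the NF-kB motif in 0 of the 8 (5.52% of all). A match is a string of letters in this window and was not tested for binding or for a part in the expression values.

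At 30 weeks, 9 of the 10 genes had higher mean expression in Nod2-/- than in WT livers, and *Saa4* was lower, but none passed 5% FDR in either direction (edgeR quasi-likelihood F-test, p adjusted after Benjamini and Hochberg over 13545 tested genes). For comparison, 0.65% of all tested genes passed as higher and 0.509% as lower. At an unadjusted p under 0.05, 8 of the 10 were higher, against 12.9% of all genes, and 0 were lower, against 10.2%. DESeq2's Wald test, the tool of the study, placed 5 of the 10 past 5% FDR as higher (*Saa1*, *Saa2*, *Orm2*, *Lcn2* and *Apcs*), against 4.38% of the 14370 genes it tested, and 0 as lower, against 4.03%. The median log2 fold change of the 10 genes was 1.65, and that of all tested genes 0.02. The groups overlapped in all 10 genes, whereas 0.753% of tested genes had every Nod2-/- mouse above every WT mouse.

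The mice of the Nod2-/- group were unlike each other. Nod2-/- replicate 7 had the highest value of all 13 mice in 9 of the 10 genes, and Nod2-/- replicates 4 and 5 were among the top 3 mice in 8 and 7 genes. Relative to the WT median, the median log2 ratio of the 10 genes was 3.44 in replicate 7, 2.36 in replicate 4, 1.57 in replicate 5 and 1.52 in replicate 3. In Nod2-/- replicates 1 and 2 it was 0.05 and 0.003, within the WT range of -0.74 to 0.63, and in replicate 6 it was -1.12. Nod2-/- livers therefore ranged from above every WT liver in 9 genes to lowest of all 13 in 5 genes. The 10 genes together took 0.432% to 0.872% of all counts in WT and 0.504% to 3.54% in Nod2-/- livers. Depth was 13824780 to 20579984 counts per mouse, and leaving out Nod2-/- replicate 7 lowered the median log2 fold change of the 10 genes to 1.06 and left 0 past 5% FDR.

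**Figure D1:**
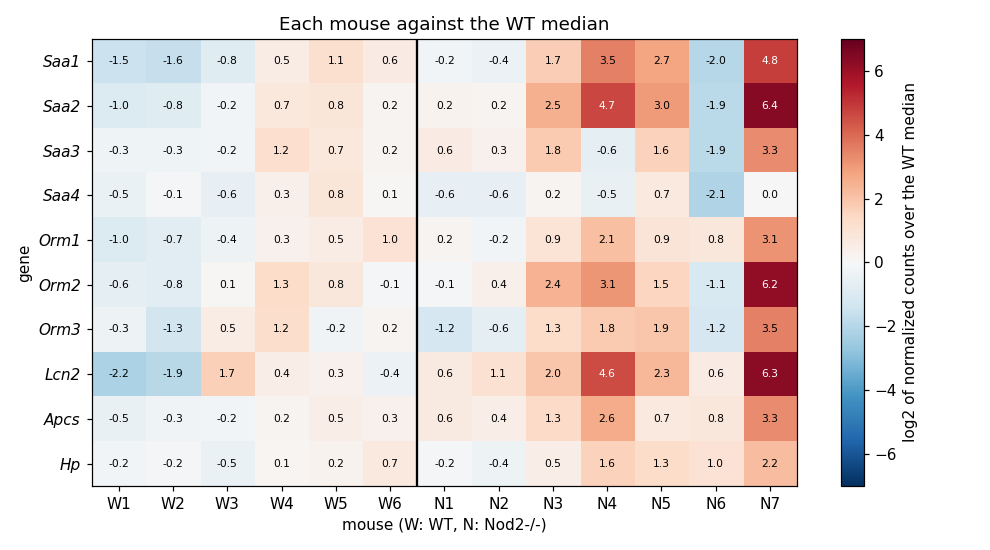
Log2 of normalized counts over the WT median (color and number) for the 10 genes (rows) in WT mice W1 to W6 and Nod2-/- mice N1 to N7 (columns). The column of N7 is at or above 0 throughout and N4 is high except in *Saa3* and *Saa4*, while N6 is negative in every *Saa* gene and positive in *Lcn2*, *Apcs*, *Hp* and *Orm1*.

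*Saa1* and *Saa2* are the inducible serum amyloid A genes of the liver. *Saa1* had 735, 689, 1170, 3024, 4546 and 3145 normalized counts (counts scaled to the mean library size) in WT replicates 1 to 6. In Nod2-/- replicates 1 to 7 it had 1812, 1579, 6861, 24538, 14060, 529 and 59856. Replicates 3, 4, 5 and 7 were above every WT mouse, replicates 1 and 2 lay within the WT range and replicate 6 below it. The log2 fold change was 2.81 ± 0.95 (SE, 95% interval 0.79 to 4.84, edgeR adjusted p = 0.108, n = 6 and 7), and DESeq2 gave an adjusted p of 0.0304. Without Nod2-/- replicate 7 the edgeR log2 fold change was 1.89 ± 0.81 (adjusted p = 0.241).

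*Saa2* had 301, 327, 509, 978, 1040 and 667 normalized counts in WT and 685, 662, 3338, 15309, 4708, 159 and 48459 in Nod2-/- mice. The same 4 Nod2-/- mice were above every WT mouse, and replicate 7 alone held 66.1% of the summed normalized counts of its group. The log2 fold change was 4.04 ± 1.11 (SE, 95% interval 1.67 to 6.41), the highest of the 10 genes and 8th among the 13545 tested, with an edgeR adjusted p of 0.0712 and a DESeq2 adjusted p of 0.00323. It was 2.70 ± 0.85 without Nod2-/- replicate 7 and 1.58 ± 0.67 without replicates 4 and 7. The ratio of group medians was 5.68, against a ratio of means of 16.4. Counted together, *Saa1* and *Saa2* had a log2 fold change of 3.19 ± 1.0 (edgeR adjusted p = 0.0927, DESeq2 adjusted p = 0.0188).

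The makeup of the pair differed between mice. *Saa2* was 17.5% to 32.2% of the summed *Saa1* and *Saa2* counts in WT livers (median 26.8%) and 23.1% to 44.7% in Nod2-/- livers (median 29.5%). The highest shares, 44.7% and 38.4%, were in Nod2-/- replicates 7 and 4, the mice with the most transcript of both genes. Among WT mice the order was the other way, with the lowest shares, 17.5% and 18.6%, in replicates 6 and 5, which had the most *Saa1*. These shares were looked at after the values of both genes had been seen and are given without a test.

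*Saa3*, which is expressed mainly outside hepatocytes, including in macrophages and fat, was less abundant. It had 117, 118, 125, 323, 241 and 162 normalized counts in WT and 216, 176, 503, 92.7, 440, 38.7 and 1442 in Nod2-/- mice. Nod2-/- replicate 4, second of all mice for *Saa1* and *Saa2*, was 12th of 13 for *Saa3*. For *Saa3* the log2 fold change was 1.20 ± 0.63 (95% interval -0.15 to 2.55, edgeR adjusted p = 0.266) and 0.44 ± 0.49 without Nod2-/- replicate 7.

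*Saa4* encodes the constitutive serum amyloid A of plasma and was the one member with a lower mean in Nod2-/- livers. It had 11939, 15381, 10879, 20779, 29119 and 17499 normalized counts in WT and 11057, 11122, 18935, 11649, 26190, 3807 and 16474 in Nod2-/- mice. The 7 Nod2-/- mice lay within the WT range except replicate 6, at 3807. Replicate 7, highest for the other 9 genes, was 6th of 13. For *Saa4* the log2 fold change was -0.31 ± 0.35 (95% interval -1.05 to 0.43, edgeR adjusted p = 0.611), and it was negative under every alternative run. *Saa4* supplied 81.5% to 93.1% of all *Saa* counts in WT livers but 13.1% and 22.6% in Nod2-/- replicates 7 and 4. The sum of all 4 *Saa* genes had a log2 fold change of 0.98 ± 0.58 (edgeR adjusted p = 0.323).

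**Figure D2:**
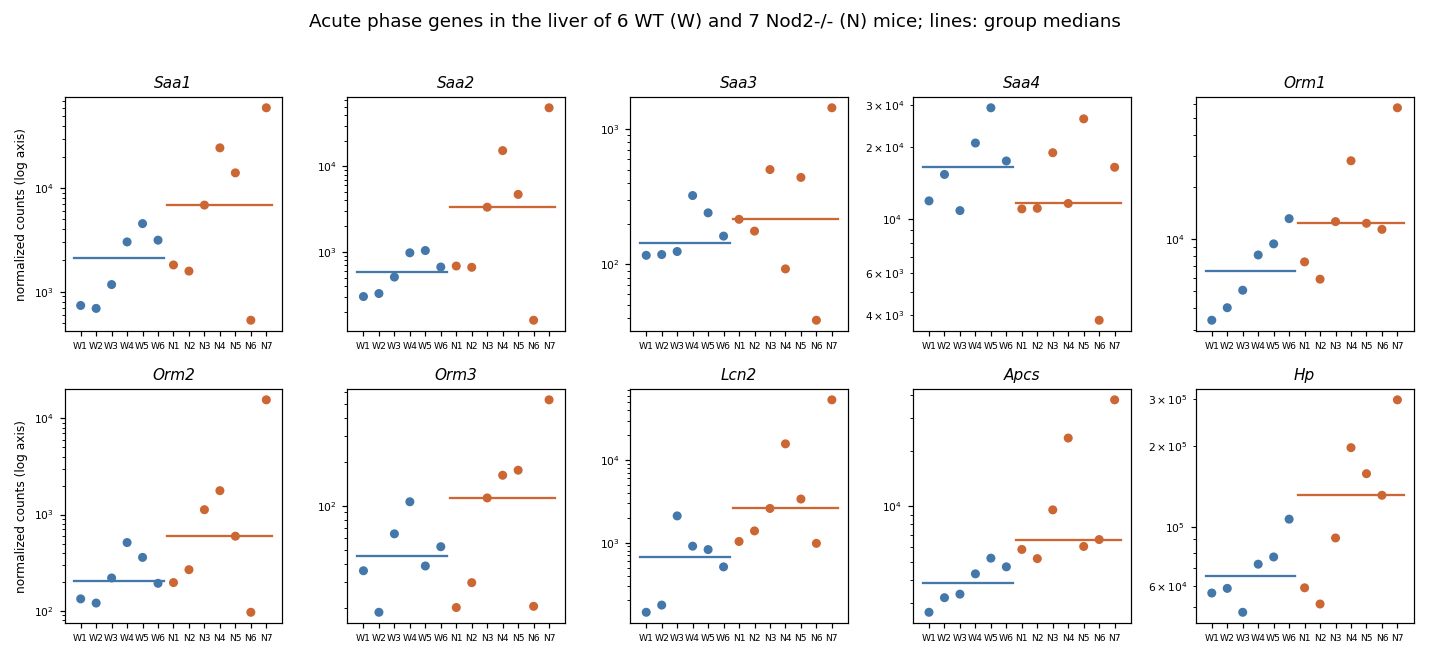
Normalized counts (vertical log axes) of the 10 genes in WT mice (W1 to W6) and Nod2-/- mice (N1 to N7), 1 point per mouse, with lines at the group medians. The groups overlap in every panel, N7 is the highest point in all panels except *Saa4*, and N6 is the lowest in the 4 *Saa* panels and in *Orm2*.

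*Orm1*, the most abundant orosomucoid gene, had 3409, 4026, 5078, 8111, 9399 and 13141 normalized counts in WT and 7398, 5880, 12630, 28332, 12354, 11397 and 57268 in Nod2-/- mice. Nod2-/- replicates 4 and 7 were above every WT mouse, and the other 5 lay within the WT range. Its log2 fold change was 1.43 ± 0.52 (95% interval 0.32 to 2.53, edgeR adjusted p = 0.128, DESeq2 adjusted p = 0.0800).

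*Orm2* had 133, 121, 220, 512, 359 and 193 normalized counts in WT and 197, 268, 1123, 1769, 596, 96.7 and 15502 in Nod2-/- mice. Its mean in Nod2-/- mice rested on replicate 7, which held 79.3% of the group's sum and 8.76 times the value of the next mouse. The log2 fold change of 3.45 ± 1.08 (95% interval 1.15 to 5.75, edgeR adjusted p = 0.0923, DESeq2 adjusted p = 0.0142) became 1.40 ± 0.61 without that mouse. *Orm2* made up 21.1% of the *Orm* counts in Nod2-/- replicate 7, 0.84% to 8.10% in the other Nod2-/- mice and 1.44% to 5.87% in WT.

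*Orm3* was the least abundant member, with 35.9, 18.6, 64.2, 106, 38.7 and 52.4 normalized counts in WT and 20.1, 29.7, 113, 162, 175, 20.5 and 530 in Nod2-/- mice. Replicates 3, 4, 5 and 7 were above every WT mouse, and the other 3 lay between the lowest WT mouse and the WT median. Its log2 fold change was 1.51 ± 0.70 (95% interval 0.02 to 3.0, edgeR adjusted p = 0.212). Summed over the 3 genes, *Orm* expression had a log2 fold change of 1.57 ± 0.56 (edgeR adjusted p = 0.122, DESeq2 adjusted p = 0.0698) and 0.88 ± 0.40 without Nod2-/- replicate 7.

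**Figure D3:**
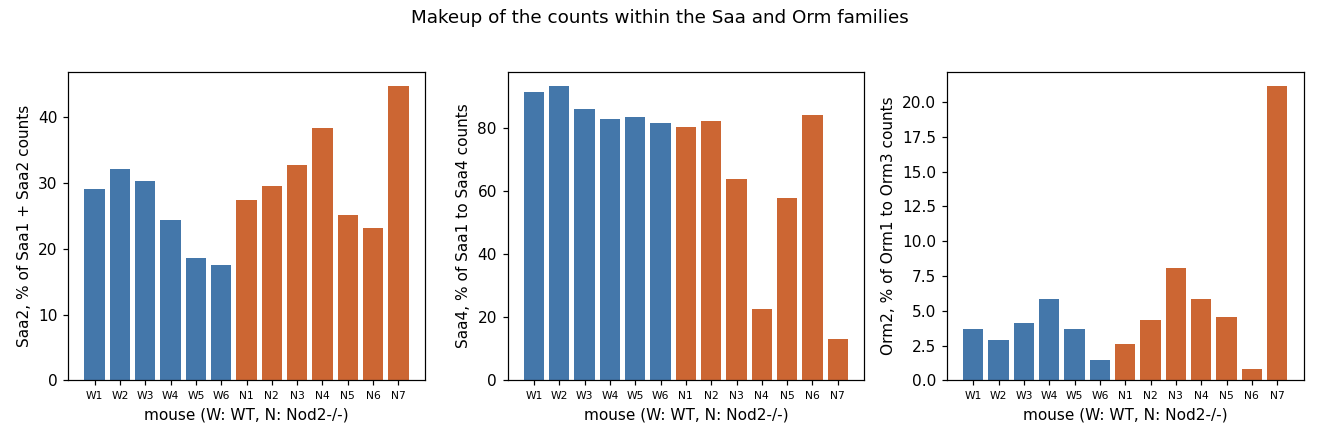
Share of *Saa2* in *Saa1* plus *Saa2* counts, of *Saa4* in all *Saa* counts and of *Orm2* in all *Orm* counts (percent, vertical axes) for WT mice W1 to W6 and Nod2-/- mice N1 to N7 (bars). N7 and N4 have the highest *Saa2* and lowest *Saa4* shares, and the *Orm2* share of N7, 21.1%, stands above all other mice.

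*Lcn2*, an iron-scavenging protein made by stressed hepatocytes and also stored in the specific granules of neutrophils, had 144, 175, 2112, 908, 825 and 509 normalized counts in WT mice. In Nod2-/- mice it had 1034, 1389, 2601, 15765, 3383, 982 and 53827. All 7 Nod2-/- mice were above the WT median and 4 were above every WT mouse. WT replicate 3 was the exception among controls, at more than the values of Nod2-/- replicates 1, 2 and 6. The log2 fold change was 3.86 ± 1.08 (95% interval 1.54 to 6.17, edgeR adjusted p = 0.0734, DESeq2 adjusted p = 0.00464). Without WT replicate 3 it was 4.46 and the edgeR adjusted p was 0.0385, making *Lcn2* the 1 member past 5% FDR, against 5.12% of genes that passed as higher in that fit. It was 2.43 ± 0.80 without Nod2-/- replicate 7 and 1.26 ± 0.60 without replicates 4 and 7.

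*Apcs*, the mouse's major acute phase pentraxin, separated the groups best. It had 2669, 3203, 3348, 4314, 5246 and 4708 normalized counts in WT and 5849, 5216, 9586, 23499, 6072, 6618 and 37870 in Nod2-/- mice. Of the 7 Nod2-/- mice, 6 were above every WT mouse, and replicate 2 (5216) lay just under WT replicate 5 (5246). By edgeR the log2 fold change was 1.79 ± 0.47 (95% interval 0.78 to 2.79, edgeR adjusted p = 0.0659, DESeq2 adjusted p = 0.0111). It was 1.28 ± 0.35 without Nod2-/- replicate 7 and 0.77 ± 0.19 without replicates 4 and 7, and in each case the 95% interval stayed above 0. In a two-sided exact permutation test over all 1716 splits of the mice, whose smallest p is 0.000583, *Apcs* had p = 0.0286 on normalized counts and 0.00408 on their log2. It was the 1 of 10 members with an unadjusted p under 0.05 on normalized counts. On the log2 scale *Lcn2* joined it (exact permutation p = 0.0157). The share of all tested genes under 0.05 by this test is not given, so these counts cannot be set against a background.

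*Hp* was the most abundant member, 15th of the 13545 tested genes by average log2 CPM. It had 56591, 58908, 47955, 72529, 77193 and 106867 normalized counts in WT and 59199, 51490, 90912, 197685, 158033, 131233 and 298353 in Nod2-/- mice. Replicates 4, 5, 6 and 7 were above every WT mouse. Replicate 6, lowest of all mice in the *Saa* genes, was 4th for *Hp*. Its log2 fold change was 1.01 ± 0.37 (95% interval 0.22 to 1.80, edgeR adjusted p = 0.132, DESeq2 adjusted p = 0.0501, exact permutation p = 0.0664). For the other 8 genes the exact permutation p on normalized counts was 0.0985 to 0.393.

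**Figure D4:**
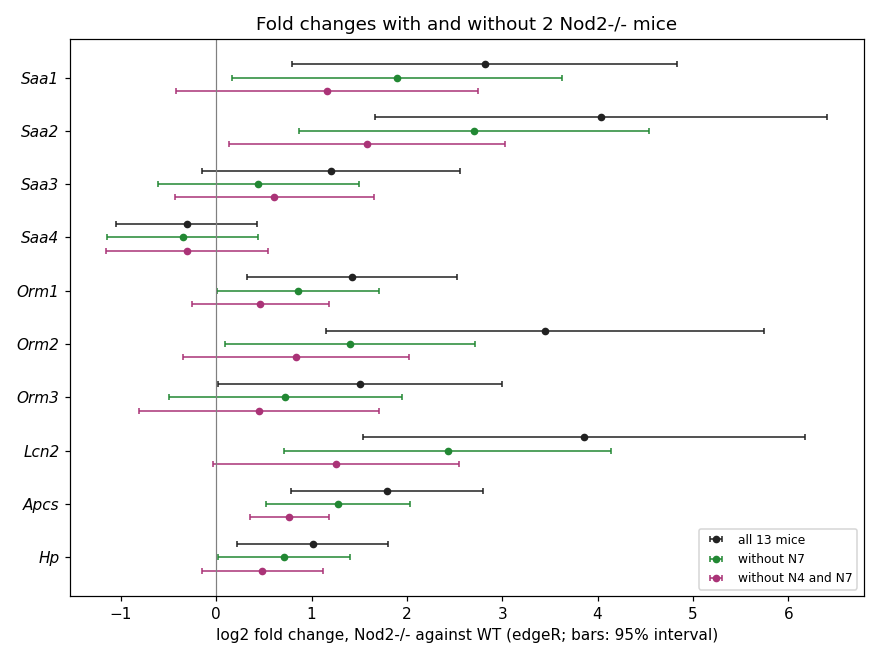
Log2 fold change, Nod2-/- against WT (horizontal axis), of the 10 genes by edgeR with all 13 mice, without N7 and without N4 and N7 (points, with bars for the 95% interval). With N7 and then N4 left out the estimates of 8 genes move toward 0, and with both left out only *Saa2* and *Apcs* keep an interval above 0.

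Compared per length of the main transcript, the order of the genes in WT livers was *Hp*, *Orm1*, *Saa4*, *Apcs*, *Saa1*, *Saa2*, *Lcn2*, *Orm2*, *Saa3* and *Orm3*. Median levels ran from 2947 CPM per kb for *Hp*, 513 for *Orm1* and 473 for *Saa4* through 208 for *Saa1* and 58.5 for *Saa2* to 3.55 for *Orm3*. *Hp* was above *Orm1*, *Saa4* above *Apcs*, *Saa1* above *Saa2* and *Saa3* above *Orm3* in 6 of 6 WT mice. *Orm1* and *Saa4*, *Apcs* and *Saa1*, and *Orm2* and *Saa3* changed places between mice (3 of 6 each). In Nod2-/- livers *Saa4* was above *Apcs* in 1 of 7 mice, and in replicate 7 *Saa1* reached 5928 and *Saa2* 4823 CPM per kb, more than *Hp* in the highest WT liver (4792).

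Most of the genes varied together across the 13 mice. Pearson's r of log2 CPM was computed for all 45 pairs, with permutation p-values from 100000 shuffles adjusted over the pairs. Of the 36 pairs without *Saa4*, 32 had an adjusted p under 0.05, and r over the 36 was 0.37 to 0.98 (median 0.85). The shuffles took no account of genotype. How many pairs of other genes reach such r in these livers is not given, so the count has no background beside it. Leaving out 2 mice for each pair, those farthest from the median of 1 of its genes, gave r from 0.09 to 0.96. Many of the r therefore leaned on the extreme mice. *Saa1* and *Saa2* were the closest pair (r = 0.98, Spearman's rho = 0.98, adjusted permutation p = 0.00011 for r and 0.00045 for rho). This r was 0.96 within WT (exact permutation p = 0.00833), 0.99 within Nod2-/- (exact permutation p = 0.000198) and 0.96 without the 2 mice farthest from the median of *Saa1*. *Saa2* and *Orm2*, on different chromosomes, had r = 0.96 and rho = 0.94, with r = 0.93 within WT, 0.96 within Nod2-/- and 0.93 without the 2 mice farthest from the median of *Saa2*.

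*Apcs* and *Orm1* (r = 0.94, rho = 0.84) and *Orm1* and *Hp* (r = 0.93, rho = 0.91) formed another close set, with r of 0.94 and 0.88 within WT and 0.96 and 0.93 within Nod2-/-. *Lcn2* and *Hp* had r = 0.76 (rho = 0.51, adjusted permutation p = 0.00418 for r and 0.102 for rho). This r became 0.34 with the 2 farthest mice left out. Within Nod2-/- it was 0.83 and within WT -0.01 (exact permutation p = 0.986, 6 mice). WT replicate 3 had the highest *Lcn2* (2112) and the lowest *Hp* (47955) of the WT mice, so the WT value leaned on that mouse. *Saa3* followed *Saa2* (r = 0.70, rho = 0.68) and had an adjusted p above 0.05 with *Orm1*, *Lcn2*, *Apcs* or *Hp* (r = 0.37 to 0.53). *Saa4* correlated with *Saa3* (r = 0.68, rho = 0.65, adjusted permutation p = 0.0193 and 0.0340), and its other 8 pairs had an adjusted p above 0.05. Within WT, median r was 0.70 over the 36 pairs without *Saa4* and 0.68 over the 9 pairs with it, and within Nod2-/- it was 0.85 and 0.56.

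Among all tested genes outside the 10, those with the pattern most like 9 of the members were found by Pearson's r of log2 CPM over the 13 mice. For *Lcn2* they were *Ucp2*, *Cd14* and *Relb* (r = 0.96 each, and 0.93 to 0.94 without Nod2-/- replicate 7). For *Hp* they were *Ifitm2* (0.97), *Lbp* (0.96), the lipopolysaccharide-binding protein, and *Nfkbib* (0.95). For *Orm1* they were *Clec4n* (0.96), *Hpx* (0.95), which encodes the heme carrier hemopexin, and *Neu1* (0.95). *Apcs* was closest to *Stard3nl*, *Gnai2* and *Prtn3* (0.93 to 0.94), *Saa1* to *Cxcl1*, *Plac8* and *Plp2* (0.88 to 0.89) and *Saa2* to *Fmnl1*, *Pfkfb4* and *Plac8* (0.90 to 0.92). *Orm3* was closest to *Clec4a1*, *Clec4a2* and *Hcls1* (0.92 to 0.93), *Saa3* to *Tmcc2*, *Dio1* and *Gm16063* (0.88 to 0.92) and *Saa4* to *Lag3*, *Adcyap1r1* and *Gm49201* (0.83 to 0.90). These r are the highest of the 13545 tested genes but the members for each gene and describe these mice only.

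Of 32 other positive acute phase genes, 0 passed 5% FDR by edgeR. At an unadjusted p under 0.05, 11 were higher, against 12.9% of all genes, and 1 (*Hamp2*) was lower, against 10.2%, and the median log2 fold change was 0.34. DESeq2 placed 3 past 5% FDR as higher, *Hpx*, *Itih3* and *Cd14*, against 4.38% of the genes it tested. *Hpx* had a log2 fold change of 1.06 ± 0.31 (edgeR adjusted p = 0.0775, DESeq2 adjusted p = 0.00954), with 67522 to 129948 normalized counts in WT and 99386 to 379168 in Nod2-/- mice. *Lrg1* had 1.15 ± 0.42 and *Lbp* 0.76 ± 0.35, and the fibrinogen genes *Fga*, *Fgb* and *Fgg* had 0.41 to 0.48. *Itih4*, *Cp* (ceruloplasmin) and *C3* (complement component 3) had 0.48, 0.63 and 0.33. *Serpina3n* had 0.20 ± 0.20 and *Crp* 0.06 ± 0.17, both with edgeR adjusted p above 0.5. *Hamp*, which encodes the iron hormone hepcidin and responds to interleukin 6, had -1.20 ± 0.67 (edgeR adjusted p = 0.290). Nod2-/- replicate 4, not replicate 7, was highest for *Fga*, *Fgb*, *Fgg*, *Itih4*, *Serpina3n* and *Lrg1*.

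Of 12 negative acute phase genes, whose transcripts usually decline, 0 passed 5% FDR by edgeR. At an unadjusted p under 0.05, 5 were higher, against 12.9% of all genes, and 0 were lower, against 10.2%. By DESeq2 1 (*Trf*, transferrin) was higher, against 4.38% of the genes it tested. *Alb* had a log2 fold change of 0.21 ± 0.23, *Apoa1* 0.53 ± 0.23 and *Ttr* -0.27 ± 0.14. *Trf* had 1.20 ± 0.36 (edgeR adjusted p = 0.0875, DESeq2 adjusted p = 0.0147).

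The cytokines that drive these genes were scarce in liver RNA. *Il6* had at most 2 counts and *Osm*, which encodes oncostatin M, at most 6 in any mouse, and 6 of the 10 cytokines were not tested because of low counts. *Il1b* had 6.58 to 29.8 normalized counts in WT and 19.3 to 199 in Nod2-/- mice, the highest again in replicate 7, with a log2 fold change of 1.41 ± 0.55 (edgeR adjusted p = 0.147) and 0.66 without that mouse. Of the 10 cytokines and the 10 cytokine receptors 0 passed 5% FDR by edgeR. At an unadjusted p under 0.05, 2 cytokines and 4 receptors were higher, against 12.9% of all genes. At the same p, 1 receptor (*Lifr*) was lower, against 10.2%. DESeq2 placed *Osmr*, *Il10rb* and *Il22ra1* higher, against 4.38% of the genes it tested. *Osmr*, the oncostatin M receptor, had 1.01 ± 0.34 (edgeR adjusted p = 0.107, DESeq2 adjusted p = 0.0383), and *Il6st*, the shared receptor subunit gp130, had -0.01 ± 0.10.

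Downstream, *Stat3* had a log2 fold change of 0.34 ± 0.17 and its target and inhibitor *Socs3* 0.77 ± 0.44 (edgeR adjusted p = 0.237 and 0.308). *Cebpb*, *Cebpd* and *Nfkbia* had -0.06 ± 0.30, 0.55 ± 0.39 and 0.02 ± 0.15. Of 16 signal transducers and factors, 15 were tested and 0 passed 5% FDR by edgeR. At an unadjusted p under 0.05, 2 were higher, against 12.9% of all genes, and 2 were lower, against 10.2%. DESeq2 placed *Nfkbiz*, an NF-kB cofactor, as higher (4.38% of all genes it tested) and *Hnf4a*, a hepatocyte factor, as lower (4.03%). *Nfkbiz* was above every WT mouse in 7 of 7 Nod2-/- mice (log2 fold change 1.29 ± 0.30, edgeR adjusted p = 0.0526). Of 13 receptors and partners of the proteins, 11 were tested and 0 passed by edgeR. At an unadjusted p under 0.05, 2 were higher (*Tlr2* and *Fpr2*), against 12.9% of all genes. *Fpr2*, a receptor for serum amyloid A, had 3.31 to 10.8 normalized counts in WT and 6.35 to 118 in Nod2-/- mice and was past the threshold by DESeq2 (adjusted p = 0.0183). *Cd163*, which takes up haptoglobin bound to hemoglobin, had -0.55 ± 0.31, *Hmox1* 0.18 ± 0.29 and *Slc22a17*, a lipocalin 2 receptor, 0.26 ± 0.29.

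Because *Lcn2* and some orosomucoid are also made by neutrophils, marker levels are given beside the result. The 14 neutrophil markers summed to 4.30 to 11.8 CPM in WT and 17.0 to 1077 CPM in Nod2-/- livers, above every WT liver in 7 of 7, and 8 of the 14 were too low to test. Without *Cebpe* the sum was 4.30 to 11.7 CPM in WT and 7.21 to 1068 CPM in Nod2-/- livers, above every WT liver in 6 of 7. *S100a8* and *S100a9* were each above every WT mouse in 6 of 7 Nod2-/- mice and *Prtn3* in 5 of 7. The sum was 1077 in Nod2-/- replicate 7 and at most 101 in the other 6. *S100a8* had 9.94 to 24.6 normalized counts in WT, 15.9 to 144 in Nod2-/- replicates 1 to 6 and 4776 in replicate 7, and *S100a9* had 26.3 to 59.8, 38.1 to 295 and 7379. Nod2-/- replicate 4, second highest for *Lcn2* at 15765, had 74.8 for *S100a8* and 9.97 for the granule gene *Ltf*, but 1223 for *Prtn3*, more than replicate 7 (842). The 4 neutrophil genes past 5% FDR by DESeq2 and tested by edgeR were *S100a8*, *S100a9*, *Prtn3* and *Cebpe*. Of all genes that DESeq2 tested, 4.38% passed as higher. *Cebpe*, a granulocyte factor on chromosome 14, was the 1 gene of all lists past 5% FDR by edgeR (log2 fold change 8.09 ± 0.41, adjusted p = 4.52e-08), with 0 to 1.10 normalized counts in WT and 91.7 to 258 in Nod2-/- mice. In bulk RNA, more cells of a type and more RNA per cell cannot be told apart.

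**Figure D5:**
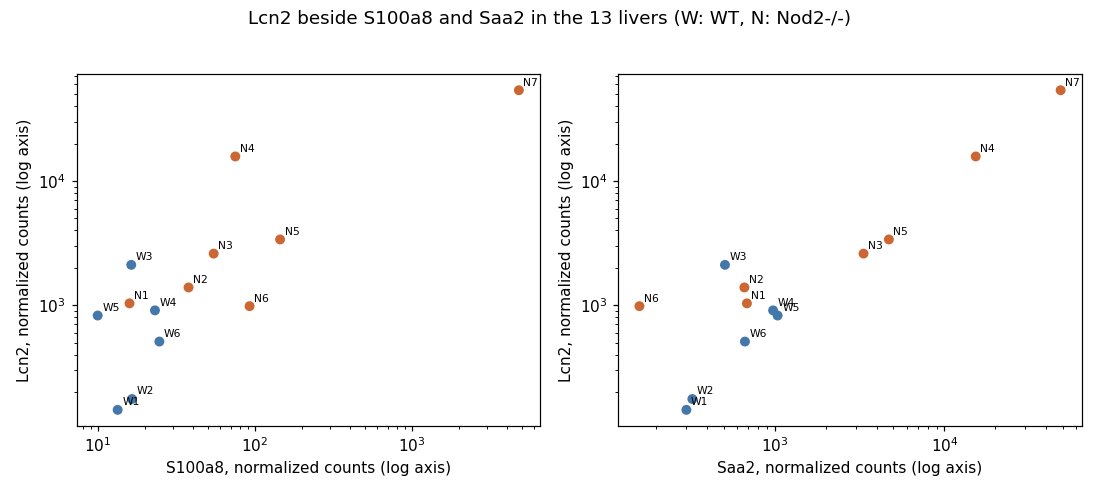
Normalized counts of *Lcn2* (vertical log axes) against *S100a8* and *Saa2* (horizontal log axes) in WT (W1 to W6) and Nod2-/- mice (N1 to N7), 1 point per mouse. N4 has 15765 counts of *Lcn2* at 74.8 of *S100a8*, and N6 has the lowest *Saa2* (159) with 982 of *Lcn2*.

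Hepatocyte markers were summed as well: the 12 genes gave 90200 to 126266 CPM in WT and 91493 to 173580 CPM in Nod2-/- livers, the highest in Nod2-/- replicate 4. The sum leaned on *Alb*, with 2120670 normalized counts in that mouse, where *Cyp2e1* was lowest of all mice at 36203. By direction 4 of the 12 genes were higher and 8 lower (median log2 fold change -0.26), so the sum is no measure of hepatocyte content. Of the 12 genes 0 passed by edgeR, and DESeq2 placed *Hnf4a*, *Cyp2e1* and *Cps1* as lower, against 4.03% of the genes it tested. Monocyte and macrophage markers summed to 128 to 259 CPM in WT and 151 to 534 CPM in Nod2-/- livers, with 1 mouse (replicate 7) above every WT mouse, and the Kupffer cell gene *Clec4f* had a log2 fold change of 0.35 ± 0.18. The 7 adipocyte markers summed to 9.26 to 30.5 and 20.3 to 58.3 CPM. The fat hormone *Adipoq* had at most 5 counts, and *Plin1* and *Lep* had at most 3 in every mouse. The 8 lung epithelium markers, included because earlier results showed them to vary, summed to 12.9 to 183 CPM in WT and 2.30 to 28.9 CPM in Nod2-/- livers, below every WT liver in 5 of 7. The part of any of these in the acute phase values was not tested.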

How the data were processed

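Liver RNA of 13 mice was analyzed as polyadenylated, stranded, paired-end reads of 43 bases. The authors used Trimmomatic 0.33 for trimming and TopHat2 2.1.1 for mapping to GRCm38 (the versions also stand in the submitters' processing notes), and they deposited whole-number counts per gene. The counting program and its use of strand and multiply mapped reads are not given in the sources used here. A row without a gene identifier was left out, and 53274 of 53465 identifiers matched a symbol. The authors' tool was DESeq2.

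Groups came from the genotype labels. The main test was the quasi-likelihood F-test of edgeR 4.0.16 under R 4.3.3 (filterByExpr, TMM, glmQLFit and glmQLFTest, two-sided, Benjamini-Hochberg over 13545 genes, threshold 0.05). SE is the log2 fold change over the square root of F. DESeq2 1.42.0, limma 3.58.1 (voomWithQualityWeights), other scaling, filters, a robust fit, the replicate number as a block and leaving out mice were alternatives. All 3 tools were tested on simulated data with capped spread between mice and no outlying mouse. That test therefore does not show how they handle the members, in which single mice stood far apart. Replicates are separate mice. Replicate numbers do not pair them (correlations of deviations -0.30 to 0.30). Exact permutation p-values were left unadjusted. Coding sequences came from GENCODE M21 and promoters from RefSeq.

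The members, lists and alternatives were chosen with earlier results of these data known. Named genes are the 10 members, list genes past 5% FDR, a fixed set of cytokines, factors, receptors and acute phase genes, and the 3 genes most like each member, which for *Orm2* are not reported here. *Fgl1*, *Cd14*, *Itih3*, *Nfkbiz*, *Il10rb*, *Il22ra1*, *Trf*, *Hamp2*, *Hnf4a*, *Prtn3*, *Lifr*, *Cyp2e1*, *Cps1*, *Tlr2* and *Ltf* were named after their values were seen. Leaving out Nod2-/- replicates 4 and 7 together, DESeq2 without replacing outlying counts, and the neutrophil sum without *Cebpe* were added after seeing the data.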

Additional observations from a re-analysis of the deposited data

Results flagged for a closer look

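One mouse stood apart from the rest of its group, by Dixon's test at its 95% critical value, in 21 of 88 groups looked at. A chance rate of about 1 in 20 holds for independent groups with normal spread. The values here were unlogged counts of genes, and of their sums, that varied together in the same mice. The 21 of 88 therefore cannot be read against that rate. Of the 21, 14 were Nod2-/- replicate 7. Among the members, its gap to the next mouse as a share of the group's range was 0.595 for *Saa1*, 0.686 for *Saa2*, 0.669 for *Saa3*, 0.891 for *Orm2*, 0.696 for *Orm3* and 0.72 for *Lcn2*. For the family sums it was 0.636 (*Saa1* and *Saa2*), 0.613 (all 4 *Saa* genes) and 0.641 (all 3 *Orm* genes). The same mouse stood apart for *S100a8* (0.973), *S100a9* (0.965), *Il1b* (0.814), *Fpr2* (0.694) and *Clec4f* (0.627). Nod2-/- replicate 4 stood apart for a different set, *Fgb* (0.605), *Fgg* (0.593), *Itih4* (0.581), *Alb* (0.619) and *Apoa1* (0.619). WT replicate 6 stood apart for *Serpina3n* (0.791) and *Cebpd* (0.707), at 15966 and 221 normalized counts against at most 11338 and 108 in the other WT mice.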

How the results depend on the processing

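Depth did not limit the members, which had at least 17 counts in every mouse. Over 24 alternatives each member kept its direction, and *Saa3*, *Saa4*, *Orm1*, *Orm3* and *Hp* passed 5% FDR under none. The number of members past 5% FDR as higher was 0 with edgeR, 5 with DESeq2 with or without replacing outlying counts, and 0 to 1 over the fits without 1 mouse each. With voomWithQualityWeights it was 0, and *Saa2* had a log2 fold change of 1.81 (adjusted p = 0.213). Without WT replicate 3 and Nod2-/- replicate 7 it was also 0. Both fits called more genes in all than the main one. Genes past the threshold in all numbered 88 higher and 69 lower with edgeR, 630 and 579 with DESeq2, 625 and 579 with DESeq2 without replacement, 519 and 324 with voomWithQualityWeights, 408 and 159 without WT replicate 3 and Nod2-/- replicate 7, and 21 and 22 without Nod2-/- replicates 4 and 7. Leaving out 1 mouse gave 20 to 697 higher and 20 to 459 lower, the most without WT replicate 3. Without Nod2-/- replicate 7 it gave 28 and 26.

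With the replicate number as a block, under which Nod2-/- replicate 7 has no partner and does not inform the genotype term, 17 genes were higher and 18 lower and 0 members passed. *Saa2* then had a log2 fold change of 1.64 and *Lcn2* 2.20. Other positive acute phase genes past the threshold as higher numbered 3 with both DESeq2 fits, 1 without WT replicate 3 and Nod2-/- replicate 7, and 0 to 1 without 1 mouse. For negative acute phase genes it was 1 with both DESeq2 fits and with voomWithQualityWeights. The sum of *Saa1* and *Saa2* passed with DESeq2 (3.17). Exact permutation p was under 0.05 for 1 member on normalized counts and 2 on log2, with no share over all genes to set beside them.

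Directions changed only for genes near 0 and far from the threshold. Under voomWithQualityWeights, the block, and without WT replicate 3 and Nod2-/- replicate 7, *Il6st* had 0.020, 0.029 and 0.068, *Nfkbia* -0.022, -0.051 and -0.14, and *Crp* -0.065, -0.045 and -0.098. Without Nod2-/- replicates 4 and 7, *Nfkbia* had -0.074, *Crp* -0.074, *Hmox1* -0.028 and *Serpina3n* -0.0071, and *Hmox1* had -0.14 under the block. Fits without 1 mouse spanned 0 for *Cebpb* (-0.28 to 0.093), *Il6st* (-0.058 to 0.031), *Nfkbia* (-0.069 to 0.10), *Crp* (-0.030 to 0.13) and *Hmox1* (-0.11 to 0.28). The r of *Lcn2* and *Hp* within WT was -0.0096. For each of these the cause was not tested.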

Other observations

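*Fgl1*, a hepatocyte gene induced by interleukin 6, had 662 to 11023 normalized counts in WT and 3654 to 33890 in Nod2-/- mice, with Nod2-/- replicates 4 and 7 close together at 33778 and 33890 (log2 fold change 1.98 ± 0.72, edgeR adjusted p = 0.129). The metallothionein genes *Mt1* and *Mt2*, which bind zinc and also belong to the acute phase response, spanned 109 to 3564 and 40.0 to 2211 in WT and 244 to 10121 and 93.1 to 7350 in Nod2-/- mice (log2 fold change 2.18 ± 0.94 and 2.39 ± 1.07, edgeR adjusted p = 0.187 and 0.201). WT replicate 6 had the highest *Mt1* and *Fgl1* of the controls, and for these 2 genes it was above Nod2-/- replicates 1 and 2. It was also above Nod2-/- replicates 3 and 5 for *Fgl1* and above replicate 6 for *Mt1*.

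Nod2-/- replicate 6 combined the lowest *Saa1*, *Saa2*, *Saa3*, *Saa4* and *Orm2* of all 13 mice with *Hp*, *Apcs* and *Hpx* values of 131233, 6618 and 208084 that were each above every WT mouse. Nod2-/- replicate 4 combined 15309 normalized counts of *Saa2* with 92.7 of *Saa3*, below every WT mouse.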
